A study of Rattus norvegicus with 64 samples.

Results

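The airway secretory and mucosal defence genes described here are 10 rat genes chosen by name: the secretoglobins Scgb1a1, Scgb3a1 and Scgb3a2, the BPI fold proteins Bpifa1 and Bpifb1, the mucins Muc1 and Muc5b, the scavenger receptor family protein Dmbt1, the polymeric immunoglobulin receptor Pigr and the C-type lectin Reg3g. All 10 are among the 30045 gene symbols of the deposited count tables. In each of the 2 studies, 9 of the 10 passed the filter on low counts and were tested, and Reg3g did not. The rule that names them holds no measured value, but they were chosen with earlier results of these data known, so the tests below are not independent of that choice.

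Secretoglobins are small proteins released in quantity by club cells, the dome-shaped secretory cells of the conducting airways. Muc5b is the gel-forming mucin on which mucociliary clearance of inhaled particles depends, and Bpifa1 and Bpifb1 are secreted proteins of the airway surface that bind bacterial products. Muc1 is a mucin anchored in the membrane of airway and alveolar epithelium, Pigr carries dimeric IgA across the epithelium into the lumen, Dmbt1 binds bacteria and surfactant protein D, and Reg3g is an antibacterial lectin induced by interleukin 22 and interleukin 17 in other mucosae.

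The RNA came from a piece of lung of each of 64 male Sprague-Dawley rats, an outbred strain. On 4 days, for 6 hours each, the rats inhaled filtered air or air carrying fracking sand dust in a whole-body chamber, with dust at 10 mg/m3 in one study and 30 mg/m3 in another. Lungs were taken 1, 7 or 27 days later. With 10 mg/m3 there were 5 rats per group on days 1 and 7 and 4 per group on day 27, and with 30 mg/m3 there were 6 per group throughout, each day having an air group and a dust group. Each study had air rats of its own, so dose and study cannot be told apart. The labels name no genetic change and no other agent in any group. Rats are numbered as in the sample titles, and p-values rest on these being separate rats.

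Library totals ran from 3420235 to 12359518 counts, and dust rat 27, taken on day 1 of the 10 mg/m3 study, had the smallest library. Levels are given as CPM, read counts relative to the library total after scaling by edgeR's TMM factors, and log2 fold changes with their standard error (SE). Of the markers of other cell types that a piece of lung can hold, ciliated cell markers were present in every library (summed level 908 to 1840 CPM over 23 genes), as were alveolar type 2 markers (19000 to 33000 CPM over 13 genes). Heart muscle markers, which mark the muscle sleeve of rodent pulmonary veins or attached heart tissue, ran from 64 to 2020 CPM over 14 genes and so differed widely between libraries. Basal cell markers summed to 9.81 to 24.9 CPM over 9 genes, and cartilage markers to 5.51 to 19.4 CPM over 12 genes. In whole tissue, fewer cells of a type and less RNA per cell cannot be told apart.

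Promoter sequence in the RefSeq table of the GRCr8 rat assembly matched 8 of the 10 genes (Muc5b and Dmbt1 had no entry). The 250 bases before the start of transcription are shown for 6 of them: for Scgb1a1, for 3 genes that varied together between rats (Scgb3a1, Bpifa1 and Bpifb1) and for 2 others that did (Muc1 and Pigr). Capitals mark matches, on either strand, to TATAAA (the core promoter box), CTTGAG (a core found in binding sites of the lung factor Nkx2-1), TATTTAC (a forkhead factor core) and CACGTG (an E-box of the kind bound by clock and MYC family factors). These motifs and the others searched were chosen after the sequences had been seen.
Scgb1a1, chr1:215409687-215409936, minus strand: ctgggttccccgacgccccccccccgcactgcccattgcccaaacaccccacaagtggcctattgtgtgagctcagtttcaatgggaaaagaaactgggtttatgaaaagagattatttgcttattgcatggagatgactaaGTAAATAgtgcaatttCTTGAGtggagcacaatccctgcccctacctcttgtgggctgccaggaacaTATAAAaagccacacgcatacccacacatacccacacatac
Scgb3a1, chr10:34468916-34469165, plus strand: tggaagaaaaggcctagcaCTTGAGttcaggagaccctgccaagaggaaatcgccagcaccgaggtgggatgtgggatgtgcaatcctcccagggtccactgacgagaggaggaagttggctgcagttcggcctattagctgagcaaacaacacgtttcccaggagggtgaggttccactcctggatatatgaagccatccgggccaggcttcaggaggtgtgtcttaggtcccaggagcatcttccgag
Bpifa1, chr3:163087715-163087964, plus strand: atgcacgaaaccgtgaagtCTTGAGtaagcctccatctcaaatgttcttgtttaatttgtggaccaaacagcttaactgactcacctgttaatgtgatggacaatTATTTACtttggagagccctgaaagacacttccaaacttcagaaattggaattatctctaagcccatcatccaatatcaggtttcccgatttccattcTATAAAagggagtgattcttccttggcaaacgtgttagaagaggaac
Bpifb1, chr3:163132901-163133150, plus strand: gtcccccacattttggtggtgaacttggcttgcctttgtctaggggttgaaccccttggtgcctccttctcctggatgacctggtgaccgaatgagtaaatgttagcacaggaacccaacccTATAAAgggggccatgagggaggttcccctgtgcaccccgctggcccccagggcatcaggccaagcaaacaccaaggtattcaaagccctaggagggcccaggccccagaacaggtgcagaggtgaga
Muc1, chr2:176933500-176933749, plus strand: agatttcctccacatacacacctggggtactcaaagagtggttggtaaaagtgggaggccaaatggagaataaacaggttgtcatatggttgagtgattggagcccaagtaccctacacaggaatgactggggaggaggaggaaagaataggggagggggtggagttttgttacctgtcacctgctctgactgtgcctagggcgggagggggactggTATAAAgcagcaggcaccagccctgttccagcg
Pigr, chr13:44850932-44851181, plus strand: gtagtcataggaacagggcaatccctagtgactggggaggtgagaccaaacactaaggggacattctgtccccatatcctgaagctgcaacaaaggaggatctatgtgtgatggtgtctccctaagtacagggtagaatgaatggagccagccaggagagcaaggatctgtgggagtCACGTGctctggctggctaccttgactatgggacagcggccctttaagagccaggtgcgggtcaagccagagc

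CTTGAG stood in 4 of the 8 promoters (Scgb1a1, Scgb3a1, Scgb3a2 and Bpifa1) and in 13.3% of the 33469 rat promoters of the same length. TATAAA stood in 5 of the 8 (Scgb1a1, Bpifa1, Bpifb1, Muc1 and Reg3g) and in 12.9% of all. In Scgb1a1 the TATAAA began 41 bases before the start, in Bpifa1 47 bases, in Muc1 33 bases and in Reg3g 32 bases, whereas in Bpifb1 it lay 128 bases before. TATTTAC stood in Scgb1a1 and Bpifa1 and in 3.04% of all promoters, and CACGTG in Pigr alone among the 8 and in 5.59% of all. TTCNNNGAA, the letters of a STAT site, stood in 0 of the 8 and in 7.67% of all. TGTTTAC, a second forkhead core, stood in 0 of the 8 and in 3.21% of all, and an NF-kB site motif in 3 of the 8 (Bpifb1, Pigr and Reg3g) and in 42.3%. The matches in capitals do not overlap one another, and a match describes the letters only.

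Between rats of the same group the members differed widely in how much they varied, and 4 of them are called the unsteady set here (the plot of levels by group). In the 10 mg/m3 study the biological coefficient of variation (BCV), the spread between rats beyond counting noise, was 13.9% for Muc1, 19.26% for Pigr and 24.1% for Scgb1a1, beside 16.11% for all genes together. Among all genes tested these stood at percentiles 51.98, 72.38 and 82.34. The BCV was 31.96% for Dmbt1 and 35.5% for Scgb3a2 (percentiles 91.84 and 94.08). It reached 86.69% for Muc5b, 103.7% for Bpifb1, 149.4% for Scgb3a1 and 165.6% for Bpifa1, which placed these 4 genes between percentiles 99.33 and 99.92 of all genes tested. In the 30 mg/m3 study the same 4 genes stood at 63.53%, 70.98%, 96.95% and 112.9% (percentiles 97.79 to 99.65), beside 16.74% for all genes together, and Muc1 at 17.43%, Pigr at 15.13% and Scgb1a1 at 16.8%.

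**Figure D1:**
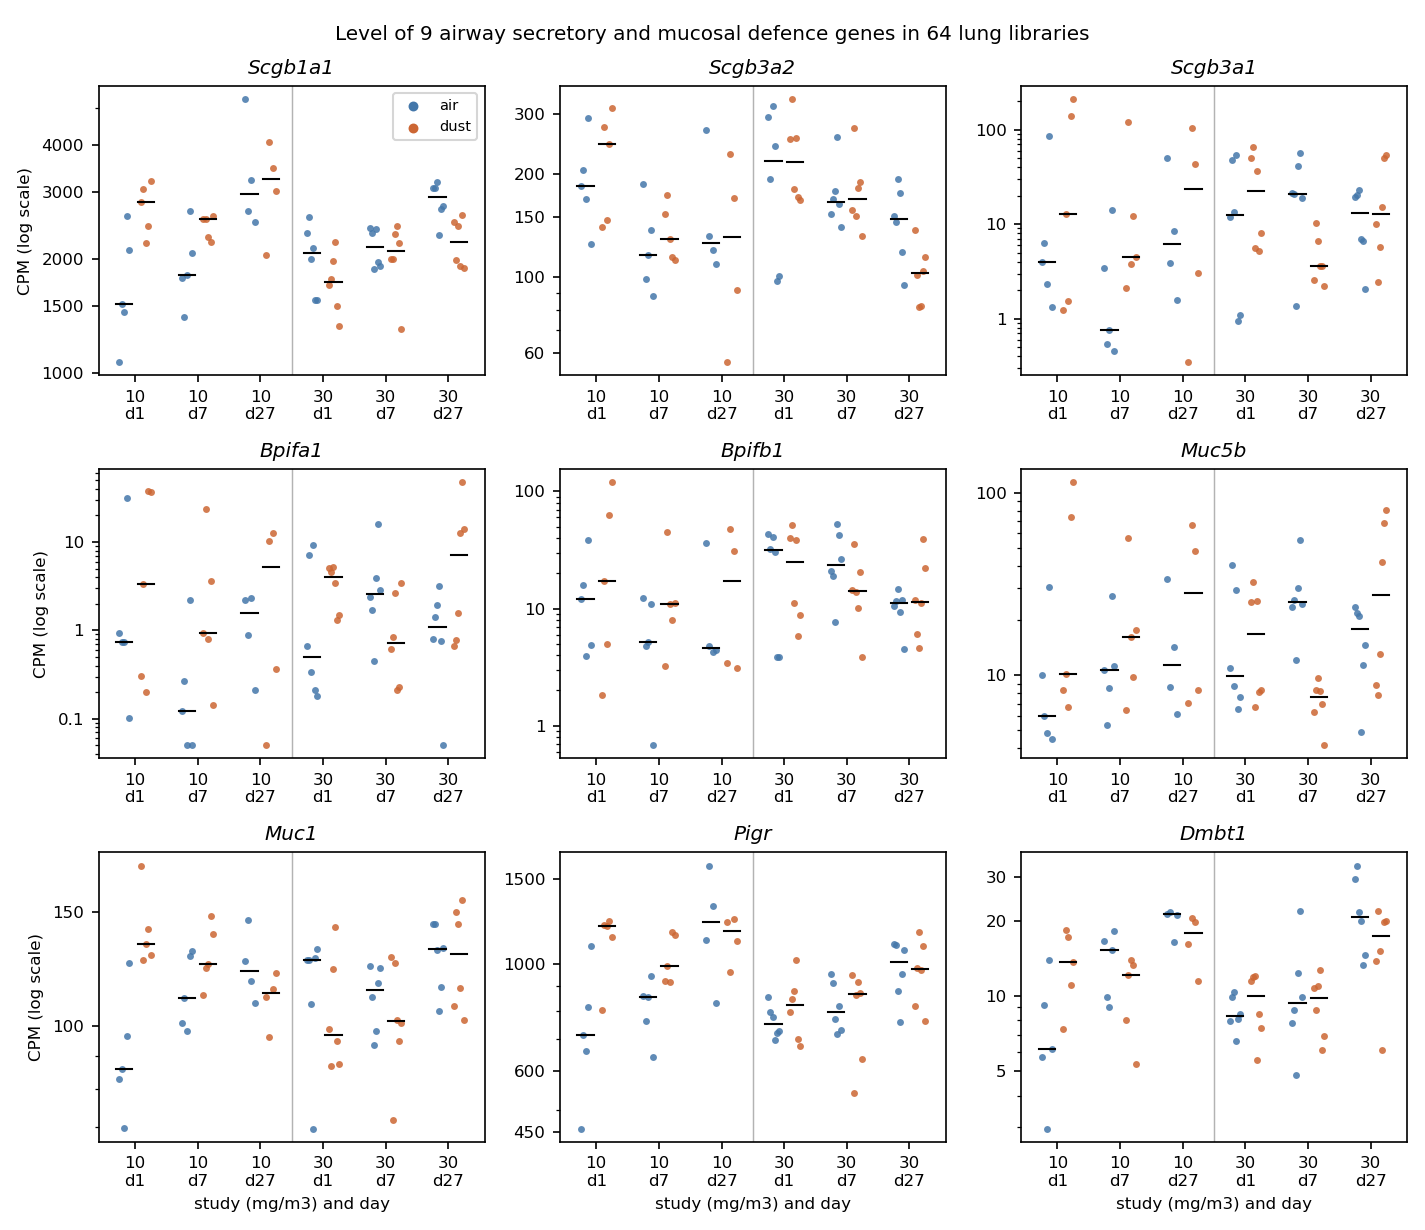
Level of 9 genes in CPM (log axis) in each of the 64 libraries, by study (10 or 30 mg/m3) and day after exposure. Each point is a rat, blue for air and orange for dust, and black lines are group medians; a Bpifa1 level of 0, in 4 libraries, is drawn at 0.05 CPM. Scgb3a1, Bpifa1, Bpifb1 and Muc5b spread more widely inside groups than Muc1, Pigr and Scgb1a1.

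Among the secretoglobins, Scgb1a1, the club cell marker, ran from 1066 CPM in air rat 17 to 5284 CPM in air rat 1, both of the 10 mg/m3 study. Scgb3a2, a secretoglobin of small-airway club cells, ran from 56.5 to 330.5 CPM. Scgb3a1, a secretoglobin of larger airways, ran from 0.346 CPM in dust rat 13 to 210 CPM in dust rat 32, a 608-fold range. The 5 air rats of day 1 at 10 mg/m3, for example, had 3.99, 6.38, 2.34, 85.6 and 1.31 CPM of Scgb3a1, and the 5 dust rats 1.23, 12.7, 1.52, 141 and 210 CPM. Rat 20 among the air rats, and rats 31 and 32 among the dust rats, stood far above the others of their group.

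The same rats were high for the other airway surface genes. In those 10 libraries, in the same order, Muc5b measured 9.98, 5.97, 4.80, 30.6 and 4.45 CPM in air and 8.31, 10.2, 6.70, 73.8 and 114 CPM in dust. Bpifa1 measured 0.922, 0.733, 0.739, 31.3 and 0.101 CPM in air and 0.308, 3.33, 0.203, 37.3 and 36.5 CPM in dust. Bpifb1 measured 12.1, 16.01, 3.94, 38.5 and 4.85 CPM in air and 1.85, 17.3, 4.97, 63.0 and 120 CPM in dust. For each of the 4 genes the highest air rat was rat 20 and the 2 highest dust rats were rats 31 and 32, and the 2 groups overlapped.

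Reg3g was at the limit of detection. Its 64 libraries held 30 counts in all, 46 libraries held 0, and the highest library, dust rat 14 of day 27 at 10 mg/m3, held 4 counts (0.463 CPM). No comparison was made for it, since a count of 0 allows up to 3 counts in a library, and no group's total of Reg3g exceeded 7 counts (air rats of day 1 at 30 mg/m3).

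The first comparison set dust against air at 10 mg/m3, 1 day after exposure. Muc1 rose, from 92.1 ± 21 CPM (SD, n = 5) to 142 ± 20.7 CPM (SD, n = 5). The air rats had 82.9, 86.0, 69.6, 96.6 and 126 CPM of Muc1 and the dust rats 177, 127, 134, 142 and 129 CPM, so that every dust rat exceeded every air rat, by a narrow margin between the nearest. The log2 fold change was 0.61 (SE 0.13, edgeR adjusted p = 0.0489). It was the 1 member of 9 called, where 0.128% of all 15668 genes were called.

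The other 8 members also had higher fitted levels in dust at that day, but did not pass. Pigr went from 457, 712, 662, 813 and 1091 CPM in air to 801, 1204, 1198, 1226 and 1138 CPM in dust, where air rats 20 and 21 exceeded dust rat 27 (log2 fold change 0.58, SE 0.17, adjusted p = 0.105). Scgb1a1 had 1066, 1514, 1443, 2596 and 2112 CPM in air and 2824, 3061, 2203, 2438 and 3206 CPM in dust, with overlap again (0.65, SE 0.22, adjusted p = 0.128). Dmbt1 stood at 7.58 ± 4.17 CPM (SD, n = 5) in air and 13.5 ± 4.51 CPM (SD, n = 5) in dust (0.86, SE 0.31, adjusted p = 0.141). The fold change of Muc5b was larger and less certain, at 1.98 (SE 0.86, adjusted p = 0.215, 95% interval 0.20 to 3.76). The median of the 9 members was 0.862, beside -0.00946 for all genes tested.

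Clock genes differed between the same groups. Dbp, a transcription factor gene driven by the circadian clock, ran from 3.22 to 8.18 CPM in the air rats and from 14.8 to 49.7 CPM in the dust rats, and rose by 2.41 (SE 0.45, adjusted p = 0.0388), while the core clock gene Arntl fell by 0.92 (SE 0.14, adjusted p = 0.00363). Of 16 clock genes tested, 4 rose and 1 fell. The Dbp call was lost in 7 of the 10 fits that left out 1 library, with adjusted p up to 0.145. With the level of Dbp as a covariate, Muc1 stood at 0.42 with adjusted p = 0.68. Dbp did not overlap between these groups, so that fit can hardly tell Dbp from dust. After group means were removed, Muc1 had r = 0.164 with Dbp over 64 libraries (permutation adjusted p = 0.477). Without dust rat 27, which had both the smallest library and the highest Muc1 of its group, Muc1 stood at 0.53 with adjusted p = 0.0757. Of the 10 fits that left out 1 library, the call held in 1, that without air rat 21, and the adjusted p ran from 0.000702 to 0.145.

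At day 7 after 10 mg/m3, 0 of the 9 members and 0% of all genes were called by edgeR. Unadjusted, 0 members were under 0.05, beside 620 of all 15668 genes, and 0 members were called with either DESeq2 or limma voom. Dust rat 44 was far above the others for all 4 unsteady genes. Its Scgb3a1 was 121 CPM and that of the other dust rats 2.1, 3.77, 12.3 and 4.48 CPM, beside 3.44, 0.537, 0.754, 14.03 and 0.454 CPM in the air rats. The log2 fold changes of Scgb3a1 (3.00, SE 1.72) and Bpifa1 (3.61, SE 1.92) came with 95% intervals from -0.57 to 6.57 and from -0.38 to 7.60. Without dust rat 44 they were 0.699 and 1.637, and without air rat 37 that of Bpifa1 was 5.746, so 1 library set much of each value. The heart muscle markers summed to 954 CPM in dust rat 44, and to 161, 306, 2016 and 589 CPM in dust rats 43, 45, 47 and 48, and all 12 tested had fitted values above 0 (median 1.54). Their part in the values of rat 44 was not tested.

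At day 27 after 10 mg/m3, again 0 of 9 members and 0% of all genes were called by edgeR, and DESeq2 and limma voom called 0 as well. An unadjusted p under 0.05 was reached by 0 members, beside 369 of all 15668 genes. Dust rats 14 and 15 had 104 and 43.5 CPM of Scgb3a1 and rats 13 and 16 had 0.346 and 3.02 CPM, while air rats 1, 3, 5 and 6 had 49.98, 3.89, 8.45 and 1.57 CPM. Dust thus held both the highest and the lowest rat of the 8. For the mean of the 3 daily effects at 10 mg/m3, 0 of 9 members passed, beside 0.0319% of all genes. All 9 fitted values were above 0, and the lowest adjusted p was 0.423, for Muc1 (0.21, SE 0.08). An unadjusted p under 0.05 was reached by 6 members, beside 1453 of all 15668 genes.

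**Figure D2:**
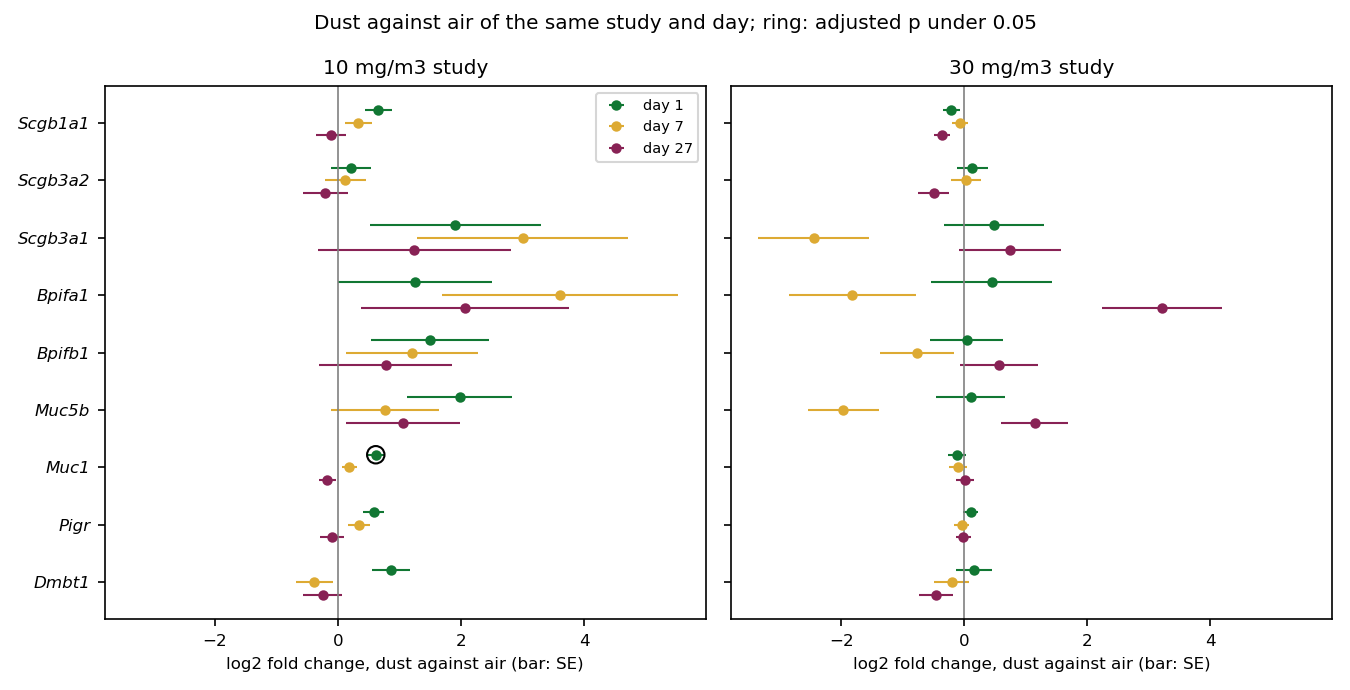
Log2 fold change of dust against air for 9 genes at each day, at 10 mg/m3 (left) and 30 mg/m3 (right). Points are fitted values, bars are 1 SE, and the ring marks an adjusted p under 0.05, which Muc1 at day 1 of the 10 mg/m3 study reached (0.61). Bars of Scgb3a1, Bpifa1, Bpifb1 and Muc5b are the wide ones.

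At 30 mg/m3 the early rise was not seen. On day 1, 0 of 9 members and 0% of all genes were called by edgeR, and DESeq2 and limma voom called 0 members. Under 0.05 unadjusted were 0 members, beside 2334 of all 15551 genes. The all-gene count depended on the fit, running from 0 to 877 calls in the other settings and from 0 to 220 leaving out 1 library. Muc1 had a median of 127 CPM in the 6 air rats (69.5 to 131 CPM) and 96.9 CPM in the 6 dust rats (86.9 to 142 CPM), and Pigr 752 CPM (698 to 856 CPM) and 822 CPM (677 to 1018 CPM), with full overlap. The 95% interval of the Muc1 effect, -0.42 to 0.17, excluded a rise as large as the 0.61 measured at 10 mg/m3. Air rats 51 and 53 of this day had 47.6 and 53.3 CPM of Scgb3a1, beside 11.9, 13.3, 0.946 and 1.10 CPM in the other air rats. Their libraries were unusual, with 21889 and 22077 genes detected at totals of 5950924 and 5559459 counts. All other libraries of the series had 17873 to 19731 genes detected. This air group is also the day 1 reference of the air comparison over time and of the difference between studies.

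On day 7 at 30 mg/m3 the gel-forming mucin Muc5b was low in dust, without passing across all genes. The 6 air rats ran from 12.2 to 55.3 CPM with a median of 25.2 CPM, and the 6 dust rats from 4.13 to 9.65 CPM with a median of 7.61 CPM, so that the groups did not overlap. Its log2 fold change was -1.96 (SE 0.58, unadjusted p = 0.00191, adjusted p = 0.297, 95% interval -3.15 to -0.79). Scgb3a1 had a median of 20.9 CPM in air (1.35 to 56.9 CPM) and 3.59 CPM in dust (2.21 to 10.3 CPM), with a fold change of -2.45 (SE 0.90, adjusted p = 0.733). In all, 0 of 9 members were called by edgeR, where 0.0643% of all genes were, and 0 were called with DESeq2 or limma voom. Under 0.05 unadjusted were 2 members, beside 776 of all 15551 genes. A fit of these 2 groups alone gave Muc5b an adjusted p of 0.0323.

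Heart muscle markers moved in the same libraries. Their summed level was 574 to 1980 CPM over 14 genes in the day 7 air rats at 30 mg/m3 and 154 to 400 CPM in the dust rats, without overlap, and Ryr2 and Ttn fell (log2 fold changes -2.50 and -2.09, adjusted p = 0.0359 and 0.0437). The ciliated cell markers summed to 1310 to 1720 CPM in air and 1190 to 1630 CPM in dust, with overlap. The part of the heart muscle markers in the low Muc5b was not tested.

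On day 27 at 30 mg/m3, Bpifa1 was high in 3 of the 6 dust rats, with 12.5, 47.2 and 13.95 CPM in rats 92, 94 and 96, while the other dust rats had 0.669, 0.771 and 1.57 CPM. The 6 air rats ran from 0 to 3.16 CPM with a median of 1.10 CPM, within which the 3 lower dust rats fell. The fold change of Bpifa1 was 3.22 (SE 0.98, unadjusted p = 0.0026, adjusted p = 0.414), and 2.051 without dust rat 94. Muc5b was high in the same 3 rats, at 41.8, 68.3 and 80.9 CPM, beside 8.89, 7.82 and 13.1 CPM in the other dust rats and 4.89 to 23.7 CPM in air. Scgb1a1 leaned the other way, with 2310 to 3200 CPM in air and 1890 to 2610 CPM in dust (-0.36, SE 0.14, adjusted p = 0.514). In the same comparison 1 of 22 ciliated markers had a fitted value above 0 (median -0.29, 0 called), with summed levels of 1280 to 1580 CPM in air and 988 to 1410 CPM in dust. All 9 liver transcripts tested had fitted values above 0 (median 2.11, 0 called), with sums over 11 genes of 254 to 323 CPM in air and 284 to 682 CPM in dust. The part of either list in the values of Scgb1a1 and Bpifa1 was not tested. By edgeR 0 of 9 members and 0% of all genes passed, and 0 members were called with DESeq2 or limma voom. Under 0.05 unadjusted were 3 members, beside 1141 of all 15551 genes.

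Averaged over the 3 days at 30 mg/m3, 0 of 9 members passed by edgeR, beside 1.2% of all genes, and 0 with DESeq2 or limma voom. An unadjusted p under 0.05 was reached by 1 member, beside 2764 of all 15551 genes. That member was Scgb1a1, at -0.22 (SE 0.08, adjusted p = 0.147). Whether the dust effect depended on the day was tested across the 3 days at once, and 0 of 9 members and 0% of all genes passed in either study by edgeR, with 0 members by DESeq2 and limma voom. The smallest unadjusted p was 0.00104 for Muc1 at 10 mg/m3 (adjusted p = 0.655) and 0.00176 for Muc5b at 30 mg/m3 (adjusted p = 0.402), and 3 members had an unadjusted p under 0.05 in each study. Over all genes, 1141 of 15668 at 10 mg/m3 and 688 of 15551 at 30 mg/m3 were under 0.05 unadjusted.

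The difference between the dust effects of the 2 studies was then tested in a fit of all 64 libraries. On day 1 the effect at 30 mg/m3 was below that at 10 mg/m3 for Muc1, by a log2 difference of -0.72 (SE 0.20, adjusted p = 0.0194), and for Scgb1a1, by -0.85 (SE 0.25, adjusted p = 0.0273). These were 2 of 9 members, where 10.4% of all 16190 genes were called, and the fitted values of all 9 members were below 0. For Pigr the difference was -0.45 (SE 0.21, adjusted p = 0.143). The Scgb1a1 call was lost without air rat 17 of day 1 at 10 mg/m3 (adjusted p = 0.0845), dust rat 61 (0.0508) or dust rat 62 (0.0536) of day 1 at 30 mg/m3, and the Muc1 call without air rat 17 (0.056). With Dbp as a covariate the adjusted p was 0.0625 for Scgb1a1 and 0.093 for Muc1. Dbp did not overlap between the day 1 groups at 10 mg/m3, which limits that fit in the same way.

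On days 7 and 27, 0 of 9 members and 0% of all genes passed this test by edgeR, and DESeq2 and limma voom called 0 members. Under 0.05 unadjusted were 3 members on day 7, beside 1298 of all 16190 genes, and 0 on day 27, beside 283. On day 7 the difference was -5.45 (SE 1.81, adjusted p = 0.427) for Scgb3a1 and -5.44 (SE 2.04, adjusted p = 0.516) for Bpifa1, and without dust rat 44 of the 10 mg/m3 study these were -3.13 and -3.442. For the mean over days, 0 of 9 members passed by edgeR, beside 2.09% of all genes. An unadjusted p under 0.05 was reached by 5 members, beside 3621 of all 16190 genes. Scgb1a1 came nearest, at -0.50 (SE 0.15, adjusted p = 0.0569), and passed with DESeq2 (adjusted p = 0.0285), with limma voom (0.0498), without air rats 51 and 53 (0.0444) and with the ciliated marker score as a covariate (0.0313).

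Air rats alone changed over time, and here the 3 members called were the same in both studies. From day 1 to day 27, Dmbt1, Scgb1a1 and Pigr rose in air at 10 mg/m3 and again in the separate air rats of the 30 mg/m3 study. Across all genes, 86 of the 15323 tested in both studies rose in both (0.561%). The day 1 air rats at 10 mg/m3 are also the reference of the day 1 dust comparison and of the difference between studies, so these results share them. The members were 3 of 9 beside 2.97% of all genes called at 10 mg/m3 and 12.9% at 30 mg/m3.

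For Dmbt1 the air groups did not overlap. At 10 mg/m3 it had 5.68, 9.21, 2.96, 13.9 and 6.16 CPM on day 1 and 21.4, 21.7, 16.4 and 21.01 CPM on day 27 (log2 fold change 1.40, SE 0.31, adjusted p = 0.0201). At 30 mg/m3 it had a median of 8.29 CPM (6.62 to 10.4 CPM) on day 1 and 20.8 CPM (13.3 to 33.2 CPM) on day 27 (1.36, SE 0.29, adjusted p = 0.00284). The dust rats had 13.5 ± 4.51 CPM (SD, n = 5) on day 1 and 16.9 ± 4.10 CPM (SD, n = 4) on day 27 at 10 mg/m3, and 9.49 ± 2.72 and 16.1 ± 5.77 CPM (SD, n = 6 each) at 30 mg/m3. A second symbol, Dmbt1-2, read here as another copy of the locus, which the sources do not state, gave nearly the same fold changes (1.31 and 1.37), and reads may be split between the 2 symbols.

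Scgb1a1 had 1066, 1514, 1443, 2596 and 2112 CPM in the day 1 air rats at 10 mg/m3 and 5284, 2681, 3236 and 2497 CPM on day 27, where air rat 20 of day 1 exceeded air rat 6 of day 27 (0.97, SE 0.23, adjusted p = 0.0248). At 30 mg/m3 its median went from 2070 CPM (1550 to 2580 CPM) to 2910 CPM (2310 to 3200 CPM), with overlap (0.49, SE 0.14, adjusted p = 0.0163). Pigr had 457, 712, 662, 813 and 1091 CPM and then 1122, 1595, 1317 and 831 CPM at 10 mg/m3 (0.70, SE 0.18, adjusted p = 0.0374), and its median went from 752 to 1010 CPM at 30 mg/m3 (0.36, SE 0.12, adjusted p = 0.0476). Pigr overlapped between the days in both studies.

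**Figure D3:**
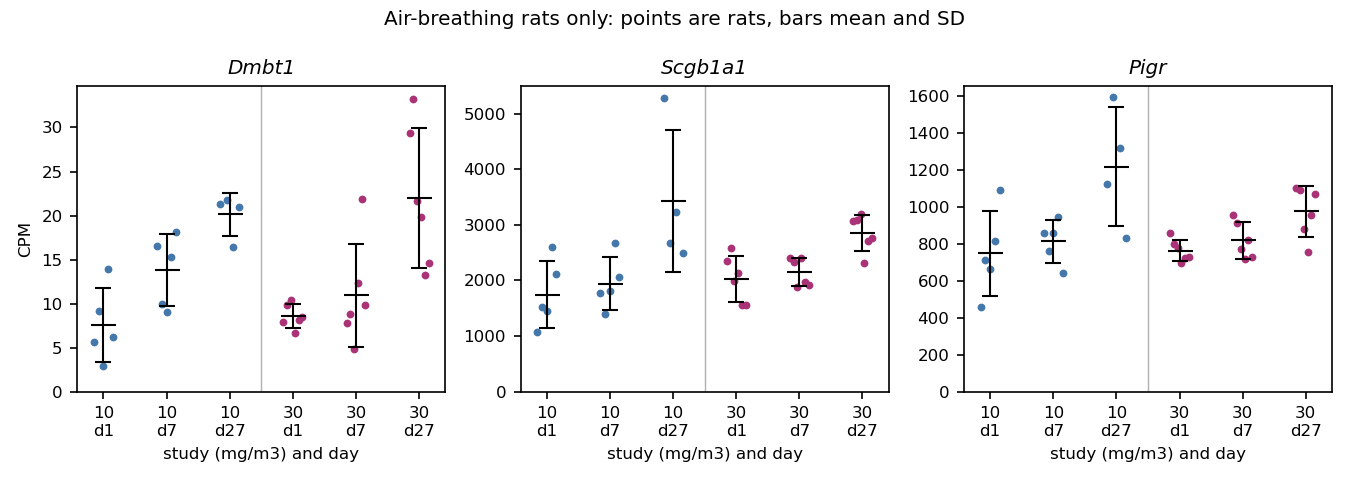
Level of Dmbt1, Scgb1a1 and Pigr (CPM, linear axis from 0) in air rats by study and day after exposure. Points are rats, blue in the 10 mg/m3 study and magenta at 30 mg/m3, and bars are the mean and SD of 4 to 6 rats. Dmbt1 of day 27 lies above that of day 1 in both studies without overlap, while the day groups of Scgb1a1 and Pigr overlap.

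The share of counts on the mitochondrial ribosomal RNA genes Rnr1 and Rnr2, a measure of library make-up, moved with day in the same rats. It was 0.0961 to 3.01% on day 1 and 3.02 to 4% on day 27 at 10 mg/m3, and 0.128 to 0.902% and 0.456 to 1.62% at 30 mg/m3. With this share as a covariate 0 members were called in either study: Dmbt1 stood at 1.54 (adjusted p = 0.247) and 1.42 (0.0545), Scgb1a1 at 0.67 (0.485) and 0.34 (0.376), and Pigr at 0.48 (0.508) and 0.11 (0.817). At 10 mg/m3 the shares of day 1 and day 27 did not overlap, so that fit can hardly tell share from day. Over all genes, edgeR calls went from 466 to as low as 3 at 10 mg/m3 among the alternative settings, of which this covariate is 1. At 30 mg/m3 they went from 2007 to as low as 110. At 10 mg/m3 the Dmbt1 call was lost without air rat 18, 19, 1 or 3 (adjusted p of 0.0524 to 0.0655), that of Scgb1a1 without 17, 18, 19, 1 or 5 (0.0529 to 0.118), and that of Pigr without each of 7 of the 9 rats (0.0533 to 0.14). The Pigr call was also lost at 30 mg/m3 with limma voom (0.0547) and without air rats 51 and 53 (0.132). At 30 mg/m3, leaving out 1 rat at a time, Dmbt1 and Scgb1a1 passed in all 12 fits and Pigr in 3 of 12.

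Markers of other cells moved over the same days, when 12.9% of all genes were called at 30 mg/m3 and 2.97% at 10 mg/m3. In air at 30 mg/m3, 4 of 8 smooth muscle markers rose and 7 of 8 had fitted values above 0 (median 0.456), among them Acta2 (0.60, SE 0.16, adjusted p = 0.0124), Lmod1 (0.62, SE 0.16, adjusted p = 0.0133) and Des (0.47, SE 0.12, adjusted p = 0.0115). Their summed level was 967 to 1530 CPM on day 1 and 1240 to 1580 CPM on day 27. At 10 mg/m3, 0 of 8 passed (median 0.00377). Their part in the rise of the 3 members was not tested.

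The other 6 members did not pass in air over that time. Bpifb1 at 30 mg/m3 went from a median of 31.3 CPM on day 1 to 11.1 CPM on day 27 (-1.28, SE 0.62, adjusted p = 0.16). In the alternative fit with the ciliated marker score as a covariate, Bpifb1 stood at -1.86 (adjusted p = 5.27e-04). Scgb3a2 stood there at -0.53 (adjusted p = 0.014) at 10 mg/m3 and -0.80 (adjusted p = 2.54e-05) at 30 mg/m3. Without the covariate Scgb3a2 was not called (-0.30, adjusted p = 0.688, and -0.50, adjusted p = 0.169). Both genes varied between rats with the summed ciliated markers (r = 0.813 and 0.909), and the share of all genes called in that fit is not given here. From day 1 to day 7 in air, 0 members passed by edgeR in either study, beside 5.9% of all genes at 10 mg/m3 and 0.116% at 30 mg/m3. DESeq2 and limma voom called 0 members. Under 0.05 unadjusted were 3 members at 10 mg/m3, beside 3585 of all 15668 genes, and 0 at 30 mg/m3, beside 1871 of 15551. Dmbt1 at 10 mg/m3 came nearest, from 7.58 ± 4.17 CPM (SD, n = 5) to 13.8 ± 4.08 CPM (SD, n = 5), at 0.85 (SE 0.31, adjusted p = 0.0974).

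Which members varied together was measured on log2 CPM after the mean of each of the 12 groups had been removed, so that group differences play no part. Of 36 pairs of the 9 members, 22 passed at a Benjamini-Hochberg adjusted p of 0.05 (permutation of libraries within groups, two-sided, 100000 resamples). The share of passing pairs among other genes was not measured, so the count cannot be read as particular to these members. Scgb3a1, Bpifa1, Bpifb1 and Muc5b formed one set, with all 6 of their pairs between r = 0.695 and r = 0.896 (permutation p = 1e-05 each, the smallest these permutations can give, and adjusted p = 4e-05). For Scgb3a1 and Bpifb1, Pearson's r was 0.896 and Spearman's rho 0.891, r was 0.909 at 10 mg/m3 and 0.874 at 30 mg/m3, and it was 0.894 without the 2 libraries farthest from the median. For Scgb3a1 and Muc5b, r was 0.891 (rho 0.869, 0.881 without 2 libraries).

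Scgb3a2 varied with every gene of this set, most with Bpifb1 (r = 0.812, rho 0.824, 0.804 without 2 libraries, permutation p = 1e-05, adjusted p = 4e-05). Its r was 0.751 with Scgb3a1 (adjusted p = 4e-05), 0.531 with Muc5b (0.000803) and 0.507 with Bpifa1 (0.00103). With Muc5b and Bpifa1 it was 0.275 and 0.201 in the 30 mg/m3 study. Scgb1a1 passed with each gene of the set, at r = 0.555 with Scgb3a1, 0.495 with Muc5b, 0.481 with Bpifb1 and 0.339 with Bpifa1. With Bpifa1 its r was 0.119 in the 30 mg/m3 study. Scgb1a1 also passed with Scgb3a2 (r = 0.544) and with Pigr (r = 0.408, 0.377 without 2 libraries, permutation adjusted p = 0.0218). Muc1 and Pigr stood apart from the set and varied with each other, at r = 0.536 (rho 0.557, 0.511 without 2 libraries, permutation p = 0.00011, adjusted p = 0.00036). Muc1 went against Scgb3a2, at r = -0.361 (rho -0.344, -0.364 without 2 libraries, permutation p = 0.0074, adjusted p = 0.0157). Dmbt1 varied weakly with the rest, its highest r being 0.368, with Scgb3a1 (rho 0.335, 0.333 without 2 libraries, permutation p = 0.00557, adjusted p = 0.0125).

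**Figure D4:**
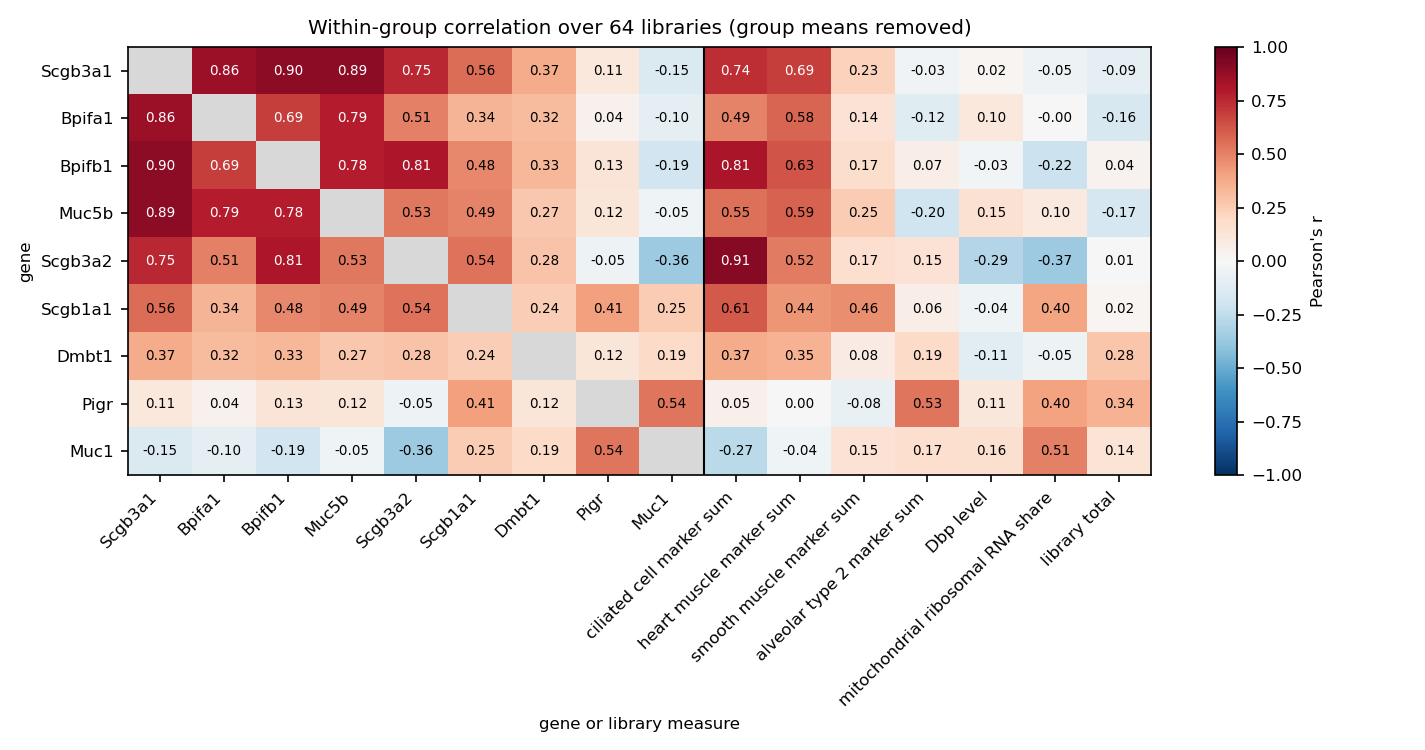
Pearson's r between 9 genes (left of the line) and between each gene and 7 library measures (right of it), over 64 libraries after group means were removed. Red is positive and blue negative, and grey cells are a gene with itself. Scgb3a1, Bpifa1, Bpifb1 and Muc5b form a block of r from 0.695 to 0.896, and Muc1 and Pigr lie outside it.

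The ciliated cell markers varied with most of the secretory genes. Over the 63 relations of 9 members with 7 library measures, Scgb3a2 had r = 0.909 with the summed ciliated markers (rho 0.918, 0.899 without 2 libraries, 0.902 and 0.921 within the 10 and 30 mg/m3 studies, permutation p = 1e-05, adjusted p = 9e-05). Bpifb1 had r = 0.813 (rho 0.821, 0.795 without 2), Scgb3a1 0.741 (rho 0.744, 0.722 without 2) and Scgb1a1 0.611 (rho 0.615, 0.591 without 2), each with the same permutation p and adjusted p. Pigr had r = 0.053 and Muc1 r = -0.269 with these markers, neither past an adjusted p of 0.05. Muc5b had r = 0.551 (rho 0.539, 0.523 without 2, permutation p = 7e-05, adjusted p = 0.000441), at 0.782 in the 10 mg/m3 and 0.314 in the 30 mg/m3 study.

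**Figure D5:**
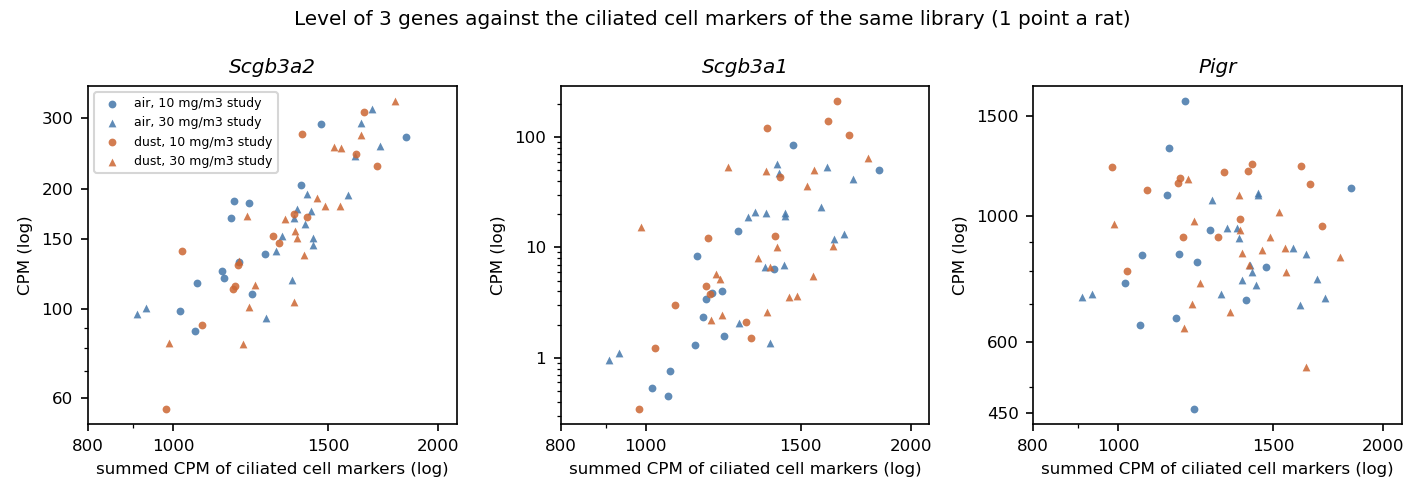
Level of Scgb3a2, Scgb3a1 and Pigr (CPM, log axis) against the summed CPM of 23 ciliated cell markers (log axis) in the same library, 1 point a rat, circles for the 10 mg/m3 and triangles for the 30 mg/m3 study, blue for air and orange for dust. Scgb3a2 follows the markers closely, Scgb3a1 follows with more scatter, and Pigr shows no slope; the r values of the text are after group means were removed.

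Heart muscle markers varied with the unsteady set as well, at r = 0.694 with Scgb3a1 (rho 0.716, 0.684 without 2 libraries), 0.627 with Bpifb1 (rho 0.68, 0.654 without 2) and 0.587 with Muc5b (rho 0.583, 0.566 without 2), each with permutation p = 1e-05 and adjusted p = 9e-05, and at 0.584 with Bpifa1 (rho 0.581, 0.529 without 2, permutation p = 2e-05, adjusted p = 0.000157). Scgb3a2 (r = 0.516, permutation adjusted p = 0.00042), Scgb1a1 (0.444, 0.0127) and Dmbt1 (0.348, 0.0366) passed with these markers too. Pigr varied instead with the alveolar type 2 markers, at r = 0.534 (rho 0.519, 0.483 without 2, permutation p = 0.00021, adjusted p = 0.0012), at 0.705 in the 10 mg/m3 and 0.305 in the 30 mg/m3 study. Scgb1a1 varied with the smooth muscle markers, at r = 0.461 (rho 0.483, 0.503 without 2, permutation p = 0.00081, adjusted p = 0.0034), at 0.342 in the 10 mg/m3 and 0.63 in the 30 mg/m3 study. Muc1 varied with the mitochondrial ribosomal RNA share, at r = 0.507 (rho 0.496, 0.534 without 2, permutation p = 5e-04, adjusted p = 0.00225), at 0.776 in the 10 mg/m3 and 0.331 in the 30 mg/m3 study. Pigr (r = 0.404, 0.218 without 2, permutation adjusted p = 0.043), Scgb1a1 (0.396, 0.377 without 2, 0.0366) and Scgb3a2 (-0.366, -0.388 without 2, 0.0168) passed with this share too. With the library total Pigr passed at r = 0.344 (rho 0.21, 0.291 without 2, permutation adjusted p = 0.0292). Scgb3a2 passed with the Dbp level at r = -0.293 (rho -0.315, -0.324 without 2, permutation adjusted p = 0.0463). The part of tissue make-up in these relations was not tested.

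By the same measure, the genes most like each member were sought among 12266 genes with a mean of at least 5 CPM, over 64 libraries, as a description. For Scgb3a1 they were Cyp2a3 (r = 0.845), RGD1560386 (0.843) and Cyp2f4 (0.839), of which Cyp2f4 is a cytochrome P450 of club cells and Cyp2a3 one of the airway epithelium. Muc5b shared Cyp2a3 (0.740) and RGD1560386 (0.727) and had Ccdc129 (0.781), and Bpifa1 had Scin (0.705), Ccdc129 (0.674) and Cyp2a3 (0.670). Bpifb1 had Chst9 (0.879), Cfap43 (0.861), a cilia gene, and Agr2 (0.860), a protein folding factor of mucous cells.

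For Scgb3a2 the 3 genes were Ldlrad1 (0.913), Wdr63 (0.908) and Tekt4 (0.907), the last 2 being parts of motile cilia, and for Scgb1a1 they were the cilia genes Ccdc65 (0.843) and Ccdc40 (0.791), and Spata18 (0.777). Muc1 had Anpep (0.860), Dag1 (0.833) and Ank3 (0.823), of which Dag1 encodes dystroglycan, the laminin receptor. Pigr had Fetub (0.821), the clock gene Bhlhe41 (0.792) and Pld3 (0.770). Dmbt1 had its second symbol Dmbt1-2 (0.874), then Ccl21 (0.549), a lymphatic chemokine, so that r fell steeply after its second symbol.

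Other genes of the mucosal defence pathway were read beside the members. Of 16 other antimicrobial and mucosal defence genes tested at 30 mg/m3, 1 rose in the mean over days, Lcn2, which withholds iron from bacteria (0.75, SE 0.18, adjusted p = 0.0354), and 0 fell, where 1.2% of all genes were called. Nfkbiz, an NF-kB cofactor that drives Lcn2, rose by 0.35 (SE 0.06, adjusted p = 0.0128), 1 of 17 upstream cytokine and transcription factor genes, and the neutrophil marker Cd177 by 1.05 (SE 0.27, adjusted p = 0.048). Leaving out 1 library at a time, Nfkbiz kept its call in 36 of 36 fits, Lcn2 in 24 and Cd177 in 9 (adjusted p up to 0.0827). Of 11 mucus granule and goblet cell genes and 14 other club and secretory cell genes, 0 passed there. At 10 mg/m3, 0 of the 16 defence, 11 goblet and 13 club cell genes passed in any dust comparison of a single day or of the mean.

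For the difference between studies on day 1, 10.4% of all genes were called, and the list counts here are to be read beside that share. Of 11 goblet cell genes 3 were lower in the 30 mg/m3 effect, the forkhead genes Foxa2 (-0.50, SE 0.13, adjusted p = 0.0126) and Foxa1 (-1.14, SE 0.30, adjusted p = 0.0132) and the secretory pathway factor Creb3l1 (-1.57, SE 0.45, adjusted p = 0.0223). With them went Lpo, the airway lactoperoxidase (-4.24, SE 1.26, adjusted p = 0.0267), 1 of 17 defence genes, and 5 of 17 upstream genes, among them the NF-kB subunit Rela (-0.60, SE 0.17, adjusted p = 0.0182), Stat6, which relays interleukin 4 and 13 signals (-0.49, SE 0.14, adjusted p = 0.0235), and the lung factor Nkx2-1 (-0.81, SE 0.26, adjusted p = 0.0402). All of these carried the sign of the Muc1 and Scgb1a1 differences. Several rested on single libraries. Without dust rat 27, the smallest library, Nkx2-1 stood at -0.279 (adjusted p = 0.295) and Creb3l1 at -0.885 (adjusted p = 0.137). Of 22 fits that left out 1 library, the call was lost in 8 for Nkx2-1, 4 for Stat6, 3 for Creb3l1, 2 each for Lpo and Rela, 1 for Foxa2 and 0 for Foxa1. Air rat 17 was the library left out in 1 of these for each of the 6 genes that lost a call. On the same contrast 0 of 22 ciliated markers passed.

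Alveolar and clock genes moved with the Muc1 and Scgb1a1 differences, on a contrast where 10.4% of all genes were called. Of 13 alveolar type 2 markers 4 were lower, among them the aspartic protease Napsa, which processes surfactant protein B (-0.59, SE 0.13, adjusted p = 0.0065), and Sftpb, which encodes that protein (-0.47, SE 0.13, adjusted p = 0.0175, lost without air rat 17). Of 13 alveolar type 1 markers 4 were lower, among them the water channel gene Aqp5 (-0.72, SE 0.19, adjusted p = 0.0138), the tight junction gene Cldn18 (-1.10, SE 0.30, adjusted p = 0.0185) and Rtkn2 (-0.46, SE 0.14, adjusted p = 0.0295), with calls lost in 1, 3 and 4 of the 22 fits. Of 16 clock genes 2 were higher, Arntl (0.86, SE 0.22, adjusted p = 0.012) and Clock (0.33, SE 0.08, adjusted p = 0.00875), and 4 were lower. The part of these lists in the 2 member differences was not tested.

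In air from day 1 to day 27 at 30 mg/m3, 12.9% of all genes were called, and the list counts here are to be read beside that share. Of 14 other club cell genes 2 rose, Cyp4b1 (0.37, SE 0.08, adjusted p = 0.00372) and Aox3 (0.44, SE 0.10, adjusted p = 0.00559). Of 16 defence genes, Duox1, a source of hydrogen peroxide at the airway surface, rose (0.95, SE 0.25, adjusted p = 0.0125), and Defb4 (-0.41, SE 0.13, adjusted p = 0.0305) and Lpo (-2.14, SE 0.71, adjusted p = 0.041) fell. Of 22 ciliated markers 3 rose, Ccdc40 (0.74, SE 0.20, adjusted p = 0.0167), Dnah9 (0.67, SE 0.21, adjusted p = 0.0299) and Dnah11 (0.37, SE 0.12, adjusted p = 0.0427), and 20 of the 22 had fitted values above 0. Of 12 IgA and plasma cell genes, which would bear on the cargo of Pigr, 0 rose and 2 fell, Txndc5 (-0.19, SE 0.06, adjusted p = 0.0301) and Derl3 (-0.65, SE 0.21, adjusted p = 0.0346). Leaving out 1 of the 12 air rats at a time, the call was lost in 8 fits each for Lpo, Txndc5 and Derl3, in 5 for Dnah11, in 4 for Defb4 and in 3 for Dnah9, and in 0 for Cyp4b1, Aox3, Duox1 and Ccdc40. Without air rat 85 of day 27, Lpo stood at -3.266 (adjusted p = 0.0101). In the 10 mg/m3 study 0 of the 13 club cell, 16 defence, 12 IgA and 22 ciliated genes passed in this comparison, where 2.97% of all genes were called.

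Genes of other lists did pass there. The type 1 marker Cldn18 (0.90, SE 0.19, adjusted p = 0.0156), the type 2 phosphate carrier Slc34a2 (0.45, SE 0.11, adjusted p = 0.0315), the basal cell marker Col17a1 (0.65, SE 0.18, adjusted p = 0.0467), the clock genes Bhlhe40 (0.41, SE 0.09, adjusted p = 0.0171) and Bhlhe41 (0.69, SE 0.17, adjusted p = 0.0246) and the transcription factor gene Stat3 (0.26, SE 0.07, adjusted p = 0.0481) rose from day 1 to day 27 at 10 mg/m3. Of 9 fits that left out 1 rat, the call was lost in 3 for Bhlhe40, 4 for Cldn18, 6 each for Slc34a2 and Bhlhe41, 7 for Stat3 and 8 for Col17a1. In the air rats at 30 mg/m3, Bhlhe41 (0.55, SE 0.15, adjusted p = 0.0174) and Col17a1 (0.58, SE 0.18, adjusted p = 0.0319) rose too, with calls lost in 0 and 7 of 12 such fits. Bhlhe41 is also among the 3 genes most like Pigr between rats, and its part in the rise of Pigr was not tested.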

How the data were processed

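Total RNA from lung was sequenced after depletion of ribosomal RNA, as stranded libraries, per the labels' protocols. The deposited values are raw read counts per gene symbol, 1 table a study. Per the submitters' processing notes, the authors used bcl2fastq 2.19, Trimmomatic 0.35, HISAT2 2.1.0, SAMtools 1.8, HTSeq 0.6.1 and the build Rnor_6.0. The annotation and strand setting of the counting are not stated by these sources.

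The counts were tested with edgeR 4.0.16 in R 4.3.3 (TMM factors, filterByExpr with a minimum count of 10 and a minimum total of 15, robust quasi-likelihood F test, Benjamini-Hochberg adjustment over all genes tested, threshold 0.05). Each study was fitted with its 6 groups, and the difference between studies with all 12 groups and 64 libraries. The SE of a log2 fold change is its size over the square root of F. Correlations used log2 CPM with a prior count of 2. DESeq2 1.42.0, limma 3.58.1 (voom), other scaling and filtering, covariates and left-out libraries were the alternatives. The code was tested on simulated data. Intervals cover 95%, and floors counting error only.

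The members and gene lists were chosen with earlier results of these data known. Every member was named in every comparison where it bears on the result. Of other lists, up to 3 genes past the threshold were named, and for likeness the 3 genes with the highest r, of which 1 is not reported here. Library totals of 3420235 to 12359518 counts limit the low genes, above all Reg3g. No 2 libraries of a group agreed within sampling noise (lowest chi-square per degree of freedom 2.14).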

Additional observations from a re-analysis of the deposited data

Results flagged for a closer look

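Dixon's test on CPM was run for each tested member in each group, 108 times in all. In 18 of these, 1 library stood far from the others of its group, and some libraries were flagged for more than 1 gene. The nominal rate of that test, about 1 in 20, holds for independent values with a normal spread. The unsteady genes varied widely and together, so the number of flags cannot be set against that rate. In the air rats of day 1 at 10 mg/m3, rat 20 had 85.61 CPM of Scgb3a1, 31.3 CPM of Bpifa1 and 30.6 CPM of Muc5b. In the air rats of day 7, rat 37 had 14.03 CPM of Scgb3a1, 2.232 CPM of Bpifa1 and 27.1 CPM of Muc5b. In the dust rats of day 7, rat 44 had 120.6 CPM of Scgb3a1, 23.34 CPM of Bpifa1, 45.21 CPM of Bpifb1 and 56.88 CPM of Muc5b. In the air rats of day 27, rat 1 had 49.98 CPM of Scgb3a1, 269.2 CPM of Scgb3a2 and 36.62 CPM of Bpifb1, and rat 5 had the lowest Dmbt1, at 16.43 CPM. Dust rat 27 of day 1 had the lowest Pigr of its group, at 801.3 CPM.

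At 30 mg/m3, air rat 69 of day 7 had 256.2 CPM of Scgb3a2, air rat 70 of day 7 had 15.76 CPM of Bpifa1, and dust rat 94 of day 27 had 47.23 CPM of Bpifa1. Rats 20, 37 and 44 were each far above their group for at least 3 of the unsteady genes. Their summed heart muscle markers were 1841, 1325 and 954.2 CPM, and the part of these in the flags was not tested.

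The day 1 dust effects of the 2 studies differed for Scgb1a1, by a log2 difference of -0.847 (edgeR adjusted p = 0.0273), and for Muc1, by -0.721 (adjusted p = 0.0194).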

How the results depend on the processing

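The count of members called for dust on day 1 at 10 mg/m3 (1) was 0 with RLE factors, limma voom, no filter, the Dbp covariate, only the 2 groups, without libraries above 100 CPM of Alb and without dust rat 27, 2 with DESeq2, and 0 to 2 leaving out 1 library. For air from day 1 to day 27 at 10 mg/m3 (3) it was 5 with the ciliated covariate, 0 with the mitochondrial ribosomal RNA covariate and 0 to 4 leaving out 1 library, and 2 to 4 otherwise. For the same days at 30 mg/m3 (3) it was 0 with the mitochondrial covariate, 4 with the ciliated covariate (Bpifb1 and Scgb3a2 among them), 2 with limma voom, no filter, the Dbp covariate or without air rats 51 and 53, and 2 to 3 leaving out 1 library, and Pigr had lost its call in each of these first 6 settings. For air from day 1 to day 7 (0) it was 1 with the ciliated covariate in each study and 0 to 1 leaving out 1 library at 10 mg/m3. For dust on day 7 at 30 mg/m3 (0) it was 1 with only the 2 groups, and for dependence on the day at 10 mg/m3 (0) it was 0 to 1 leaving out 1 library. For the study difference on day 1 (2) it was 0 with Dbp, 1 without libraries above 100 CPM of Alb and 0 to 3 leaving out 1 library. For the mean study difference (0) it was 1 with DESeq2, limma voom, the ciliated covariate or without air rats 51 and 53, and 0 to 2 leaving out 1 library.

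Signs reversed in uncalled values of Scgb3a1 for the study difference on day 1 without air rats 51 and 53 (0.196), of Scgb3a1 for dust on day 27 at 10 mg/m3 (-0.013 to 3.045 leaving out 1 library), and of Bpifa1 for air on day 27 at 10 mg/m3 (-2.606 to 1.211) and for the study difference on day 27 (-0.039 to 1.883). Dbp with its own level as covariate gave -0.002 for day 1 and -0.004 for the mean, which follows from that covariate. Over all genes, dust on day 1 at 10 mg/m3 gave 20 calls with edgeR, 476 with DESeq2 and 8 with limma voom, and air on day 27 at 10 mg/m3 gave 466, 934 and 706. At 30 mg/m3 the mean dust effect gave 187, 441 and 189, day 7 gave 10, 55 and 7, day 1 gave 0, 46 and 0, and the mean study difference gave 338, 835 and 197. Dust on day 1 at 30 mg/m3 gave up to 877 calls in another setting and up to 220 leaving out 1 library. Other causes of these changes were not tested. No paired analysis was possible because the groups share no replicate number, each rat's number being its own.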
